A study of Mus musculus with 18 samples.

Results

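The 10 genes of canonical Wnt signalling described here were followed through all 18 libraries of a mouse stroke study. They are the 4 transcription factors through which beta-catenin acts (Lef1, Tcf7, Tcf7l1, Tcf7l2) and 6 genes known as beta-catenin targets or partners (Axin2, Nkd1, Notum, Apcdd1, Tnfrsf19, Sox17). They were taken by symbol from a table of 21638 genes, each symbol matched 1 gene, and all 10 were among the 17094 genes with enough counts to be tested.

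The libraries held RNA of endothelial cells sorted from mouse cortex as CD31+ CD41- CD45- cells, which keeps vessel lining cells and leaves out platelets and leukocytes. Stroke was modelled by surgery that blocks the middle cerebral artery (MCAO), and sham mice served for comparison. Cells came from the side of the surgery (ipsilateral) or the opposite side (contralateral) on day 7, in 6 groups of 3 libraries.

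Sham ipsilateral, sham contralateral, MCAO ipsilateral and MCAO contralateral libraries came from mice whose genotype is given as WT. The other groups were MCAO ipsilateral cells of mice labelled Hdac2 ECKO or Ezh2 ECKO, an endothelial knockout made with floxed (lox/lox) alleles and Cdh5CreERT2, a recombinase driven by an endothelial promoter and switched on by tamoxifen. Every library carries the label tamoxifen at 75 mg per kg, and for the floxed mice 5 doses are described. Whether the WT mice carried the recombinase or floxed alleles is not given in the sources used here, nor are the age of the mice and the number of mice behind a library. The labels do not say that replicates were separate mice, nor whether same-numbered ipsilateral and contralateral libraries came from 1 mouse, so p-values measure the spread between these libraries. In such bulk samples fewer cells of a type and less RNA per cell cannot be told apart.

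Wnt ligands bind Frizzled receptors with the co-receptors Lrp5 and Lrp6 and keep beta-catenin from being destroyed. Beta-catenin then enters the nucleus and turns factors of the TCF/LEF family from repressors into activators of their target genes, several of which are inhibitors that close a feedback loop. In brain endothelium this pathway is known for building and maintaining the blood-brain barrier.

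The total count per library ran from 25791401 to 57576255, and between 15428 and 20940 genes had a count above 0. The summed level of 12 endothelial markers was 12183 to 27388 CPM, where CPM is counts per 1000000 after scaling. It was 34.1 to 93.5 CPM for 7 microglial and 0.547 to 19.8 CPM for 7 neuronal markers. Red cell RNA was plentiful in many libraries, with a sum of 70.1 to 297849 CPM for 5 red cell markers. Globin genes held 0.00932% to 19.9% of the counts of a library. Counts on 1464 olfactory and vomeronasal receptor genes, which endothelial cells are not known to use, served as a measure of diffuse background and ranged from 152 to 2077 CPM. MCAO contralateral replicate 1 (1883 CPM) and Ezh2 ECKO replicate 2 (2077 CPM) had the most of it and stood apart, with median correlations to the other libraries of 0.868 and 0.888, where every other library had at least 0.921. For comparisons that include them the main values, but not every value, are also given without both.

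Hdac2, a histone deacetylase gene, had a level of 82.9 ± 14.0 CPM in MCAO ipsilateral, against 76.8 ± 16.8 CPM where the label was Hdac2 ECKO (SD, n = 3 each), with an edgeR adjusted p of 0.925. Ezh2, the methyltransferase gene of Polycomb repressive complex 2, had 6.44 ± 1.77 CPM in MCAO ipsilateral, against 13.4 ± 5.76 CPM where the label was Ezh2 ECKO, with an edgeR adjusted p of 0.485. Neither label was borne out by a fall in whole-gene counts, which cover exons outside a floxed part too, so these groups are called by their labels below.

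Per kilobase of feature, Lef1 had the highest level of the 10 genes, with 68.3 ± 42.8 CPM per kb over the 18 libraries (mean ± SD). Sox17 followed with 50.6 ± 11.0 and Tnfrsf19 with 36.2 ± 14.3 CPM per kb. Tcf7 had 22.1 ± 7.01, Apcdd1 17.4 ± 7.08 and Notum 14.6 ± 3.72 CPM per kb. Nkd1, Axin2 and Tcf7l2 had 6.59 ± 2.91, 5.89 ± 2.11 and 5.01 ± 1.54 CPM per kb, and Tcf7l1 was lowest with 1.18 ± 0.719 CPM per kb. Neighbours in this order overlapped in their ranges over the libraries, except Tcf7l2 and Tcf7l1, as the plot of levels per kilobase shows for the groups. Lef1 was the most abundant of the 4 factors and Tcf7l1 the least.

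**Figure D1:**
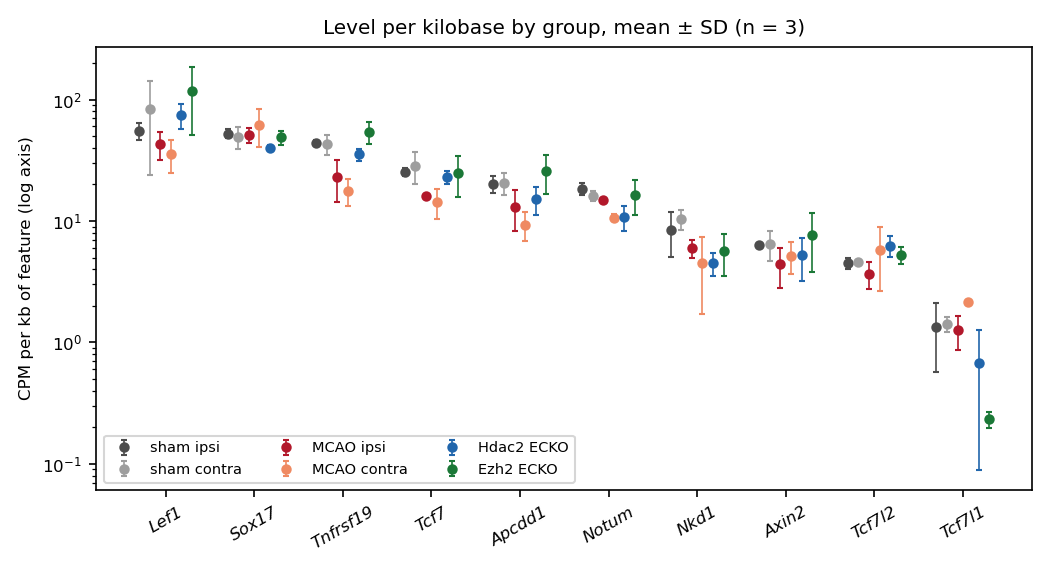
Level of each gene per kilobase of feature (CPM per kb, log axis) in the 6 groups, with points for the mean and bars for the SD of 3 libraries. The genes are ordered by their mean over all libraries, from Lef1 (68.3 CPM per kb) to Tcf7l1 (1.18 CPM per kb).

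RefSeq start sites on GRCm38.p6, with 250 bases before and 50 after each, were at hand for 7 of the 10 genes, 13 start sites in all, and not for Apcdd1, Sox17 and Notum. They were searched on both strands for 4 words that TCF/LEF factors are known to bind. Of 32851 promoters of that length, 5.14% held the word CTTTGAA, 3.73% were found with CTTTGAT, a share of 3.63% had the form CTTTGTA, and 5.85% had the form CTTTGTT. Forms ending in TA or TT overlap, on the other strand, with the word ACAAAG of SOX factors. Of the 13 windows, 3 held one of the 4 words, beside 16.9% of all promoters. These windows are shown because they hold the factors' own word, with the word, or its reverse complement for Tnfrsf19 and Lef1, in capitals, written 5′ to 3′ along the strand of the gene.

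Tnfrsf19: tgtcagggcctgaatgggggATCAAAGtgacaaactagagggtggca
Lef1: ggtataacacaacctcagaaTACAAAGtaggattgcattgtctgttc
Tcf7l2: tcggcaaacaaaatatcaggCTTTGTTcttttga

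The Tnfrsf19 window lies at chr14:61038163-61038209 on the minus strand, with its word 202 bases before the second listed start. The Lef1 window lies at chr3:131156127-131156173 on the plus strand, with its word 147 bases before the fourth listed start, and the Tcf7l2 window at chr19:55895287-55895320 on the plus strand, 14 bases before the second listed start. All 3 fall in introns of the gene's longer transcripts in GENCODE M21, so they belong to internal starts. A match of letters is a description of these windows and no measurement of binding.

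Directly upstream of the first listed starts none of these words was found for the 3 genes below. Their 100 bases are shown because they differ in CG pairs, the sites at which DNA can be methylated, which are in capitals. The 100 bases before the start of Tnfrsf19, the gene with the clearest change, held 6 CG pairs, those of Lef1 4 and those of Axin2 16.

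Tnfrsf19: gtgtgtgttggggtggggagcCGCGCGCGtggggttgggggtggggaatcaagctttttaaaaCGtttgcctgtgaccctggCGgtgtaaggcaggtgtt
Lef1: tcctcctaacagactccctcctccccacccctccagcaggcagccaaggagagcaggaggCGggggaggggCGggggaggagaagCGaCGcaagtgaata
Axin2: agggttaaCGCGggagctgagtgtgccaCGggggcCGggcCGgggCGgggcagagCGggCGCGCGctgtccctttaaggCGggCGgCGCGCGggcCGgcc

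They lie at chr14:61046856-61046955 (minus strand), chr3:131110197-131110296 (plus) and chr11:108920249-108920348 (plus), outside any exon or intron of the 3 genes. Their GC content was 60%, 66% and 80%. The whole promoter windows of these starts had a GC content of 51%, 67.3% and 70%, in the same order. The median over the whole windows of all promoters was 52.7%, so the Tnfrsf19 window lay below it and the others above. Methylation was not measured, and no relation of these sequences to the levels was tested.

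Occlusion was compared with sham on each side and over both sides together. Tnfrsf19 was the 1 gene of the 10 that fell after occlusion at an edgeR adjusted p under 0.05, with the mean of the effects on both sides at −1.12 on the log2 scale, a 2.17-fold difference. Apcdd1, Nkd1, Tcf7 and Lef1 had lower means too, with log2 fold changes from −0.89 to −0.80, and did not pass. Sox17, Tcf7l1 and Tcf7l2 differed by less than 1 standard error (SE). The test over both sides counts every library as separate. If both sides came from the same mice, a mouse would enter more than once, which its p does not allow for. On either side alone Tnfrsf19 did not pass.

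Lef1, the most abundant of the factors, spans 131110471 to 131224356 on chromosome 3 (plus strand, GRCm38). It measured 407, 483 and 569.9 CPM in sham ipsilateral and 463, 1338 and 403 CPM in sham contralateral (replicates 1, 2 and 3 here and below). After occlusion it measured 322, 316 and 492 CPM on the ipsilateral and 204, 358 and 374 CPM on the contralateral side. The contralateral groups did not overlap, the ipsilateral ones did, and a single sham contralateral library was far above every other WT library. The log2 fold change was −1.24 ± 0.46 (SE) contralaterally, with an edgeR adjusted p of 0.920, and −0.80 ± 0.32 over both sides, with an adjusted p of 0.427. Without sham contralateral replicate 2 these values were −0.47 and −0.42, and the difference between the sham sides turned from −0.59 to 0.17. Without both libraries that stood apart the value over both sides was −0.66, with an edgeR adjusted p of 0.159.

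Tcf7 encodes T cell factor 1 and spans 52252371 to 52283331 on chromosome 11 (minus strand). It measured 79.4, 70.5 and 80.2 CPM in sham ipsilateral, 84.7, 112 and 61.3 CPM in sham contralateral, 46.3, 50.3 and 49.0 CPM in MCAO ipsilateral and 29.5, 50.8 and 50.3 CPM in MCAO contralateral. All 6 MCAO libraries lay below all 6 sham libraries. The log2 fold change over both sides was −0.82 ± 0.24, with an edgeR p of 0.00239 before and 0.194 after adjustment over all genes. On the single sides it was −0.66 ± 0.34 and −0.98 ± 0.34, ipsilateral first. Without both libraries that stood apart the value over both sides was −0.69, with an edgeR adjusted p of 0.0787.

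Tcf7l1, which is known mainly as a repressor, and Tcf7l2, a factor with wide expression, behaved otherwise. Tcf7l1 (chromosome 6, 72626378 to 72789254, minus strand) measured 8.60, 2.86 and 4.23 CPM in sham ipsilateral and 6.03, 4.67 and 6.10 CPM in sham contralateral, and 5.95, 3.20 and 5.65 CPM in MCAO ipsilateral. In MCAO contralateral it had 8.44, 8.02 and 8.83 CPM, above all 3 libraries of sham contralateral and of MCAO ipsilateral. These differences were smaller than 1 SE of the fit over all 6 groups. Tcf7l2 (chromosome 19, 55741820 to 55933654, plus strand) measured 34.6, 41.2 and 42.1 CPM in sham ipsilateral and 41.3, 40.4 and 38.4 CPM in sham contralateral, and 33.0, 23.8 and 39.5 CPM in MCAO ipsilateral. In MCAO contralateral its libraries spread from 26.6 to 81.3 CPM, and the highest was replicate 1, which carried high background.

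**Figure D2:**
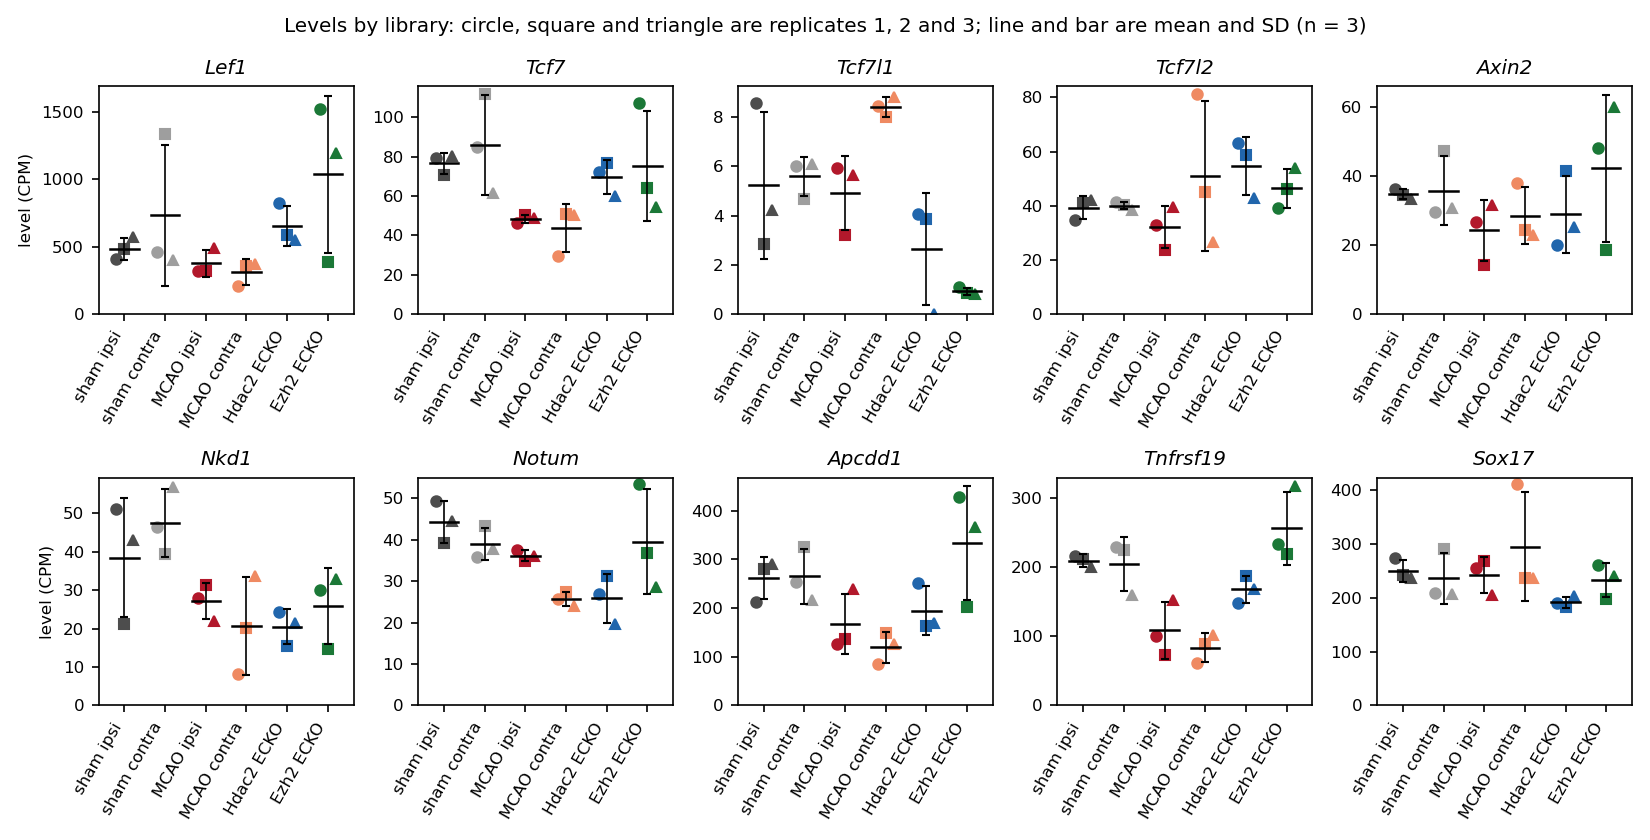
Level in CPM of each gene in each of the 18 libraries, with circles, squares and triangles for replicates 1, 2 and 3, a line for the group mean and a bar for the SD (n = 3). Tnfrsf19 in the 6 MCAO libraries of WT mice sits between 60.9 and 153 CPM, below the 6 sham libraries, which start at 159 CPM.

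Of the feedback inhibitors, Axin2 (chromosome 11, 108920349 to 108950783, plus strand) encodes a scaffold of the complex that destroys beta-catenin. It measured 36.3, 34.7 and 33.4 CPM in sham ipsilateral and 26.8, 14.3 and 31.6 CPM in MCAO ipsilateral, without overlap. The sham contralateral libraries had 29.6, 47.3 and 30.6 CPM and the MCAO contralateral ones 38.0, 24.4 and 23.1 CPM, with overlap. The ipsilateral log2 fold change of −0.52 ± 0.45 was close to its error, with an edgeR adjusted p of 0.803.

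Nkd1, which encodes an inhibitor of Dishevelled, spans 88521354 to 88594884 on chromosome 8 (plus strand). It measured 51.0, 21.2 and 43.1 CPM in sham ipsilateral, 46.5, 39.3 and 56.9 CPM in sham contralateral, 28.0, 31.5 and 22.1 CPM in MCAO ipsilateral and 8.10, 20.2 and 33.7 CPM in MCAO contralateral. The contralateral groups did not overlap, and 1 sham ipsilateral library lay below all MCAO ipsilateral ones. Over both sides the log2 fold change was −0.85 ± 0.34, with an edgeR adjusted p of 0.405, and −0.63 without both libraries that stood apart, where MCAO contralateral replicate 1 had the lowest Nkd1 level of all. Over the 18 libraries Nkd1 had a Pearson r of −0.602 with the background, with an adjusted permutation p of 0.0715 over 10 such relations. Spearman rho was −0.399, and without the 2 libraries of most extreme background r was −0.167. Tcf7l2 had r 0.570 with the background and the same adjusted permutation p.

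Notum encodes a secreted enzyme that strips the lipid from Wnt ligands and spans 120653788 to 120661175 on chromosome 11 (minus strand). It measured 49.4, 39.1 and 44.4 CPM in sham ipsilateral, 35.8, 43.3 and 37.9 CPM in sham contralateral, 37.6, 34.8 and 36.0 CPM in MCAO ipsilateral and 25.6, 27.3 and 24.0 CPM in MCAO contralateral. The MCAO contralateral libraries lay below those of every other WT group, and MCAO ipsilateral lay below sham ipsilateral. The contralateral log2 fold change was −0.60 ± 0.34, with an edgeR adjusted p of 0.920. Of the exon bases of Notum, 29.4% are shared with the antisense gene Notumos in GENCODE M21, and without strand the reads of both cannot be told apart.

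Apcdd1 encodes a membrane inhibitor that binds Wnt ligands and Lrp co-receptors, and it is known as a Wnt target of barrier endothelium. It spans 62922231 to 62961179 on chromosome 18 (plus strand). Its level was 213, 281 and 292 CPM in sham ipsilateral and 253, 326 and 216 CPM in sham contralateral, then 127, 137 and 239 CPM in MCAO ipsilateral and 84.6, 148 and 127 CPM in MCAO contralateral. A single MCAO library, ipsilateral replicate 3, reached into the sham range. Over both sides the log2 fold change was −0.89 ± 0.25, with an edgeR p of 0.00149 before and 0.166 after adjustment, and −0.77 with an adjusted p of 0.0524 without both libraries that stood apart.

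Tnfrsf19, also called Troy, encodes a receptor of the tumour necrosis factor family and is known as a Wnt target that marks brain endothelium. It spans 60963875 to 61046490 on chromosome 14 (minus strand), and none of its exon bases is shared with another gene in GENCODE M21. It measured 217, 212 and 199.8 CPM in sham ipsilateral and 229.5, 225 and 159 CPM in sham contralateral. After occlusion it measured 101, 72.3 and 153 CPM ipsilaterally and 60.9, 88.8 and 101 CPM contralaterally. All 6 MCAO libraries lay below all 6 sham libraries, with sham contralateral replicate 3 and MCAO ipsilateral replicate 3 closest to each other.

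The group means of Tnfrsf19 were 209.5 ± 8.74 and 204 ± 39.3 CPM in sham and 108 ± 40.7 and 83.6 ± 20.6 CPM in MCAO, ipsilateral first (SD, n = 3 each). The log2 fold change was −0.95 ± 0.31 ipsilaterally (edgeR p 0.00617, adjusted 0.562) and −1.29 ± 0.31 contralaterally (0.000511, adjusted 0.920). Over both sides it was −1.12 ± 0.22, with an adjusted p of 0.0406, and −1.0 with an adjusted p of 0.0162 without both libraries that stood apart. The call depended on single libraries. It was kept when MCAO ipsilateral replicate 3, MCAO contralateral replicate 1 or MCAO contralateral replicate 3 was left out, and lost without any one of the other 9 libraries, with adjusted p between 0.0142 and 0.171 and log2 fold changes between −1.28 and −1.01.

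Sox17 encodes a SOX family factor of arterial endothelium and is placed among Wnt targets in vessels. It spans 4490931 to 4497354 on chromosome 1 (minus strand). It measured 274, 242 and 236 CPM in sham ipsilateral, 209.6, 291 and 207 CPM in sham contralateral, 254, 268 and 205 CPM in MCAO ipsilateral and 412, 236 and 237 CPM in MCAO contralateral. The groups overlapped on both sides, and the 1 high value was that of MCAO contralateral replicate 1. Of its exon bases 16.8% are shared with the antisense gene Gm37587, of those of Lef1 13.7% with Gm43352, of those of Tcf7l1 4.56% with Gm15401, and of those of Axin2 a smaller share with Gm11670.

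Read together against all genes tested, 1 of the 10 genes was called lower over both sides, beside 0.0293% of all genes called lower and 0.152% called in either direction. Unadjusted edgeR p-values were under 0.05 in the lower direction for 5 of 10, beside 3.57% of all genes. The median log2 fold change of the 10 genes was −0.63, beside 0.06 for all genes, and 7 of the 10 were lower. Those 5 genes were Tnfrsf19, Tcf7, Apcdd1, Nkd1 and Lef1. Tcf7 and Tnfrsf19 were without overlap, 2 of 10 beside 1% of all genes. Without both libraries that stood apart 2 of 10 were lower without overlap, beside 2.83% of all genes. The median of the 10 genes was then −0.58, beside −0.10 for all genes.

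On the ipsilateral side all 10 point estimates were below 0, from −0.95 to −0.05, with a median of −0.43 beside −0.09 for all genes. Tcf7, Axin2, Notum and Tnfrsf19 did not overlap with sham there, 4 of 10 beside 14.4% of all genes, and 1 of 10 had an unadjusted p under 0.05, beside 2.81% lower among all genes. On the contralateral side Lef1, Tcf7, Nkd1, Notum, Apcdd1 and Tnfrsf19 lay below sham without overlap, 6 of 10 beside 6% of all genes, and Tcf7l1 above it, 1 of 10 beside 3.65%. The contralateral median was −0.79, beside 0.17 for all genes, and 5 of 10 were lower at an unadjusted p under 0.05, beside 1.76%. Without both libraries that stood apart, the contralateral log2 fold changes of those 6 genes ran from −1.08 for Tnfrsf19 to −0.58 for Notum, with a median of −0.66 over the 10 genes beside −0.10 for all genes. Axin2 then lay below sham as well, 7 of 10 beside 18.4% of all genes. With all 6 groups in the fit edgeR called 0 genes of all 17094 on either single side, where 1210 had an unadjusted p under 0.05 ipsilaterally and 754 contralaterally, and DESeq2 called 69 and 26. Fitted with only the groups compared, edgeR called 220 genes ipsilaterally and 0 contralaterally, with none of the 10 among them.

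The occlusion effect was not shown to differ between the sides. In the test of that difference none of the 10 passed, with a smallest edgeR adjusted p of 0.941, and of all genes 0 passed, with 578 at an unadjusted p under 0.05 and 6 called by DESeq2. Between the sides of MCAO mice Tcf7l2 differed by −0.67 ± 0.37 and Notum by 0.49 ± 0.34 on the log2 scale, ipsilateral minus contralateral. Without MCAO contralateral replicate 1 the Tcf7l2 value was −0.16, and without both libraries that stood apart Tcf7l2 differed by −0.18 and Notum by 0.48. For both the edgeR adjusted p was 1, and none of the 10 passed. Notum was higher without overlap ipsilaterally, 1 of 10 beside 3.49% of all genes, and Tcf7l1 lower, 1 of 10 beside 1.88%. Between the sides of sham mice the median of the 10 genes was −0.03 on the log2 scale. For both comparisons of sides 0 of all genes passed, with 526 and 317 at an unadjusted p under 0.05 and 6 called by DESeq2 in each.

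Levels of cell type markers in sham and MCAO are given beside these results. The summed level of 9 pericyte and smooth muscle markers was 104 to 162 CPM in sham ipsilateral and 99.7 to 198 CPM in sham contralateral, and 38.1 to 103 CPM in MCAO ipsilateral and 14.5 to 66.8 CPM in MCAO contralateral. All 9 had lower means over both sides, with a median log2 fold change of −1.19, and none passed the edgeR test. The endothelial markers were lower for 7 of 12, with a median of −0.23. Their summed level was 15336 to 16087 CPM in sham ipsilateral and 19369 to 27388 CPM in MCAO ipsilateral, higher without overlap. Contralaterally it was 15065 to 24346 CPM in sham and 14053 to 26443 CPM in MCAO, with overlap. The microglial markers were higher for 6 of 6 tested, with a median of 2.36 and none past the test. Fibroblast markers (5 of 5) and choroid plexus markers (4 of 4) were higher too, with medians of 1.68 and 1.07. Neuronal (5 of 6 higher) and oligodendrocyte lineage markers (5 of 7) had medians of 0.52 and 0.44. Astrocyte markers (3 of 7 higher) had −0.16, and no marker of these lists passed. Of 7 T cell and leukocyte markers, whose sum was 2.25 to 20.8 CPM in sham and 0.552 to 8.38 CPM in MCAO of WT mice, 6 were tested and 5 were lower over both sides, with a median of −1.55 and none past the test. On the ipsilateral side 6 of 6 were lower and on the contralateral side 3 of 6, and Cd3d was at 0 in all MCAO ipsilateral libraries. The 5 red cell markers summed to 19222 to 59003 CPM in sham ipsilateral and 38267 to 65445 CPM in MCAO ipsilateral. Contralaterally they summed to 72026 to 129586 CPM in sham and 37448 to 159427 CPM in MCAO, and the groups overlapped on both sides. Over both sides 3 of the 5 were higher and 2 lower, with a median of 0.10 and none past the test. The part of these markers in the fall of Tnfrsf19 was not tested.

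**Figure D3:**
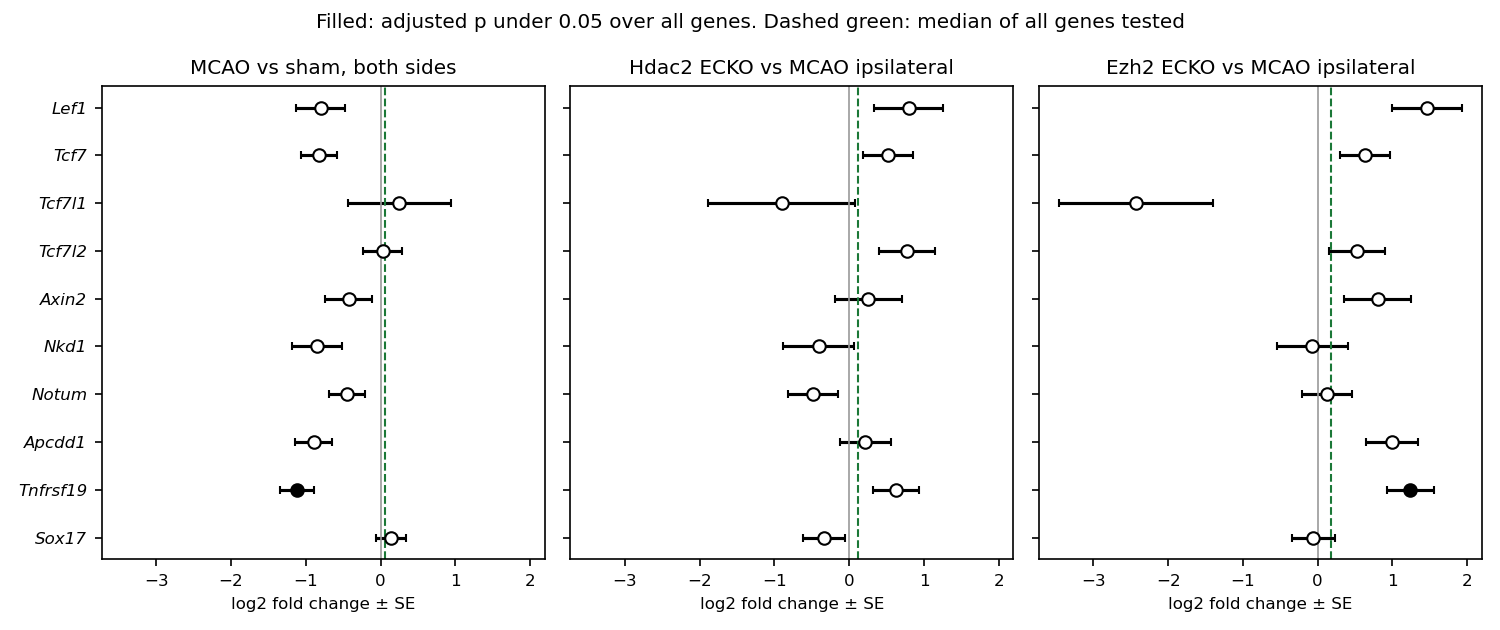
Log2 fold change and its SE for each gene in MCAO against sham over both sides, and in each ECKO group, by its label, against MCAO ipsilateral, with a dashed line at the median of all 17094 genes. Filled points, Tnfrsf19 at −1.12 in the left panel and at 1.24 in the right panel, passed an edgeR adjusted p of 0.05.

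Both ECKO groups were set against MCAO ipsilateral of WT mice. These same MCAO libraries enter the comparison with sham, so a low value in them lowers one result and raises the other, and the comparisons are not independent. Tnfrsf19 was higher in the libraries labelled Ezh2 ECKO by 2.36-fold and passed the test, and Lef1 and Apcdd1 had means 2.75-fold and 1.98-fold higher that did not pass. None of the 10 genes passed for the libraries labelled Hdac2 ECKO.

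In the libraries labelled Ezh2 ECKO, Tnfrsf19 measured 233, 219 and 317 CPM, all above the highest MCAO ipsilateral library at 153 CPM. The lowest of them also lay above all libraries labelled Hdac2 ECKO, which had 148, 187 and 168 CPM. The log2 fold change against MCAO ipsilateral was 1.24 ± 0.31, with an edgeR p of 0.000726 before and 0.0499 after adjustment, at the edge of the threshold. It was 1.32 with an adjusted p of 0.0204 without both libraries that stood apart. Leaving out single libraries kept the call only without MCAO ipsilateral replicate 3 and lost it for the other 5, with adjusted p from 0.0283 to 0.290 and log2 fold changes that stayed above 1.

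Lef1 measured 1527, 388 and 1199 CPM in the libraries labelled Ezh2 ECKO, against 322, 316 and 492 CPM in MCAO ipsilateral. Replicate 2, which carried the most background, lay within the MCAO ipsilateral range. Replicate 1 was the highest of all 18 libraries, and replicate 3 lay above every library of the other groups except sham contralateral replicate 2. The log2 fold change was 1.46 ± 0.47, with an edgeR p of 0.00491 before and 0.0991 after adjustment. Without both libraries that stood apart it was 1.83, with an adjusted p of 0.0188. DESeq2 gave 1.59, with an adjusted p of 0.0164.

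Apcdd1 showed the same order of libraries, at 429, 202 and 368 CPM, with replicate 2 again within the MCAO ipsilateral range. Its log2 fold change was 0.99 ± 0.35, with an edgeR p of 0.00964 before and 0.132 after adjustment. Without both libraries that stood apart it was 1.22, with an adjusted p of 0.0291, and DESeq2 gave an adjusted p of 0.0167. Axin2 measured 48.0, 18.4 and 60.2 CPM, with replicate 2 once more the low one, and differed by 0.80 ± 0.45, with an adjusted p of 0.324. Without both libraries that stood apart Axin2 differed by 1.13, with an adjusted p of 0.0853, and without Ezh2 ECKO replicate 3 by 0.46.

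Tcf7l1 was the factor that went the other way, at 1.08, 0.854 and 0.811 CPM in the libraries labelled Ezh2 ECKO, below all 15 other libraries but 1. The log2 fold change was −2.43 ± 1.03, with an edgeR p of 0.0284 before and 0.204 after adjustment. Tcf7 measured 107, 64.3 and 54.2 CPM there, above all MCAO ipsilateral libraries, and differed by 0.63 ± 0.34, with an adjusted p of 0.302, and by 0.29 without Ezh2 ECKO replicate 1. Tcf7l2 measured 39.2, 46.2 and 53.8 CPM and differed by 0.53 ± 0.37.

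Nkd1 (30.1, 14.6 and 33.0 CPM), Notum (53.3, 36.7 and 28.6 CPM) and Sox17 (261, 198 and 240.2 CPM) overlapped with MCAO ipsilateral and differed by less than 1 SE. RLE in place of TMM scaling turned the sign for Nkd1 and Sox17. Whether they differed from Tnfrsf19 in their response was not tested.

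Of the 10 genes 1 was called higher in the libraries labelled Ezh2 ECKO, beside 0.228% of all genes called higher and 1.46% called in either direction. Unadjusted p-values were under 0.05 for 3 of 10 higher, beside 8.51% of all genes, and for 1 of 10 lower, beside 10.7%. Tcf7 and Tnfrsf19 lay above MCAO ipsilateral without overlap, 2 of 10 beside 13.6%, and Tcf7l1 below it, 1 of 10 beside 15.3%. The shares without overlap were thus near those of all genes. With those that stood apart left out, 5 of 10 were higher without overlap, beside 19.8% of all genes, and 1 of 10 lower, beside 19.9%. The median of the 10 was 0.58 on the log2 scale, beside 0.17 for all genes, and RLE scaling moved the median of all genes to 0.36 and the log2 fold change of Tnfrsf19 to 1.43.

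In the libraries labelled Hdac2 ECKO, Lef1 measured 826, 584 and 551 CPM, Tcf7 72.1, 76.6 and 59.9 CPM and Tcf7l2 63.1, 58.7 and 42.7 CPM. Each of these factors lay above all MCAO ipsilateral libraries. The log2 fold changes were 0.80 ± 0.46, 0.52 ± 0.34 and 0.77 ± 0.37, with edgeR adjusted p-values of 0.591, 0.638 and 0.511. Tcf7l1 measured 4.06, 3.85 and 0 CPM, and the 0 allows up to 0.0882 CPM at 3 counts.

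Of the targets in the libraries labelled Hdac2 ECKO, Notum had 26.9, 31.3 and 19.6 CPM and Sox17 191, 182 and 203 CPM, all below MCAO ipsilateral. Their log2 fold changes were −0.48 ± 0.34 and −0.34 ± 0.28, with edgeR adjusted p-values of 0.667 and 0.726. Apcdd1 had 252, 164 and 169 CPM, Axin2 20.2, 41.5 and 25.2 CPM and Nkd1 24.4, 15.6 and 21.5 CPM, and all 3 overlapped with MCAO ipsilateral. Tnfrsf19 overlapped too, by 1 library, and differed by 0.63 ± 0.31 with an adjusted p of 0.516.

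Without overlap 3 of the 10 genes were higher and 2 lower in the libraries labelled Hdac2 ECKO, beside 9.54% and 10.3% of all genes. edgeR called 0 of the 10 genes, with 0 also at an unadjusted p under 0.05 and 0 by DESeq2, and 0.0117% of all genes. The median of the 10 was 0.24 on the log2 scale, beside 0.11 for all genes. Set directly against each other, the libraries labelled Hdac2 ECKO were lower than those labelled Ezh2 ECKO with log2 differences of −0.61 ± 0.31 for Tnfrsf19 and −0.77 ± 0.35 for Apcdd1 and edgeR adjusted p-values of 0.476 and 0.411. Tnfrsf19 was without overlap, 1 of 10 beside 5.26% lower among all genes. None of the 10 passed there, beside 0.123% of all genes, so the groups so labelled were not shown to differ for these genes. Without both libraries that stood apart the differences were −0.73 for Tnfrsf19 and −1.05 for Apcdd1, with edgeR adjusted p-values of 0.264 and 0.114, and 6 of 10 were lower without overlap, beside 9.44%.

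Marker levels differed between these groups as well. The summed endothelial markers were 19369 to 27388 CPM in MCAO ipsilateral, 15468 to 18462 CPM in libraries labelled Hdac2 ECKO, then 12183 to 14785 CPM in those labelled Ezh2 ECKO, without overlap between the 3 groups. By number, 6 of the 12 endothelial markers were higher and 6 lower in each ECKO group. The medians were −0.02 (label Hdac2 ECKO) and −0.08 (label Ezh2 ECKO) on the log2 scale. At an edgeR adjusted p under 0.05, 1 of the 12 passed where the label was Ezh2 ECKO and 0 where it was Hdac2 ECKO. The 5 red cell markers summed to 38267 to 65445 CPM in MCAO ipsilateral. Where the label was Ezh2 ECKO they reached 70.1 to 671 CPM, and all 5 fell at an edgeR adjusted p under 0.05. Where the label was Hdac2 ECKO they summed to 49294 to 297849 CPM, with overlap. There 4 of the 5 were higher, with a median log2 fold change of 1.90 and none past the test. The pericyte and smooth muscle markers summed to 38.1 to 103 CPM in MCAO ipsilateral. Where the label was Hdac2 ECKO, 7 of the 9 were lower, with a median log2 fold change of −1.63 and none past the test. Where the label was Ezh2 ECKO they summed to 26.3 to 168 CPM, with overlap. There 6 of the 9 were lower, with a median log2 fold change of −1.20 and none past the test. Of the T cell and leukocyte markers, which summed to 1.02 to 8.73 CPM there and 0.552 to 3.42 CPM in MCAO ipsilateral, 4 of 6 were higher with a median of 2.07, and 5 of 6 were higher in the libraries labelled Hdac2 ECKO with a median of 1.14, none past the test. Microglial markers were lower for 6 of 6 tested in both ECKO groups, with medians of −1.40 (label Hdac2 ECKO) and −0.86 (label Ezh2 ECKO), none past the test. Of 7 oligodendrocyte lineage markers tested, 5 were higher where the label was Ezh2 ECKO, with a median of 0.99, and 1 passed. No astrocyte, neuronal, fibroblast or choroid plexus marker passed in either group. The part of all these markers in the Wnt genes' values was not tested.

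The other genes of the pathway were read from 4 lists of 59 symbols, of which 56 were tested. edgeR called any of them in 1 comparison, the libraries labelled Ezh2 ECKO against MCAO ipsilateral, with 3 higher and 1 lower of 56, beside 0.228% and 1.23% of all genes. Ctnnb1, which encodes beta-catenin itself, measured 1883, 1287 and 2032 CPM against 612, 464 and 851 CPM. It rose by 1.43 ± 0.31 on the log2 scale, with an edgeR adjusted p of 0.0324, and no library overlapped.

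Among 11 receptors and ligands, 2 were called. Tspan12, which encodes a co-factor of Frizzled 4 for Norrin, measured 376, 229 and 429.6 CPM against 134, 142 and 117 CPM and rose by 1.39 ± 0.31, with an edgeR adjusted p of 0.0356. Reck, which encodes a membrane protein that receives Wnt7 ligands together with Adgra2, measured 193, 127 and 207 CPM against 67.0, 73.6 and 66.0 CPM and rose by 1.35 ± 0.32, with an adjusted p of 0.0434. Of the whole list 4 were higher and 7 lower, with a median of −0.33.

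Of 14 nuclear cofactors 1 was called. Tle5, a short relative of the Groucho co-repressors, measured 20.9, 3.53 and 24.7 CPM against 146, 275 and 68.9 CPM and fell by 3.32 ± 0.79 on the log2 scale, with an edgeR adjusted p of 0.0426. Of 11 genes of the destruction complex 6 were higher and 5 lower, Ctnnb1 included, with a median of 0.35. Of 20 other targets 14 were higher and 6 lower, with a median of 0.39, and 0 were called. The 4 called genes kept their direction in every alternative run, with adjusted p between 0.000249 and 0.225, and the number of called pathway genes fell to 0 with the background as a covariate, ranged from 0 to 2 when single libraries were left out, was 5 with only the groups compared, 6 without both libraries that stood apart and 12 by DESeq2.

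**Figure D4:**
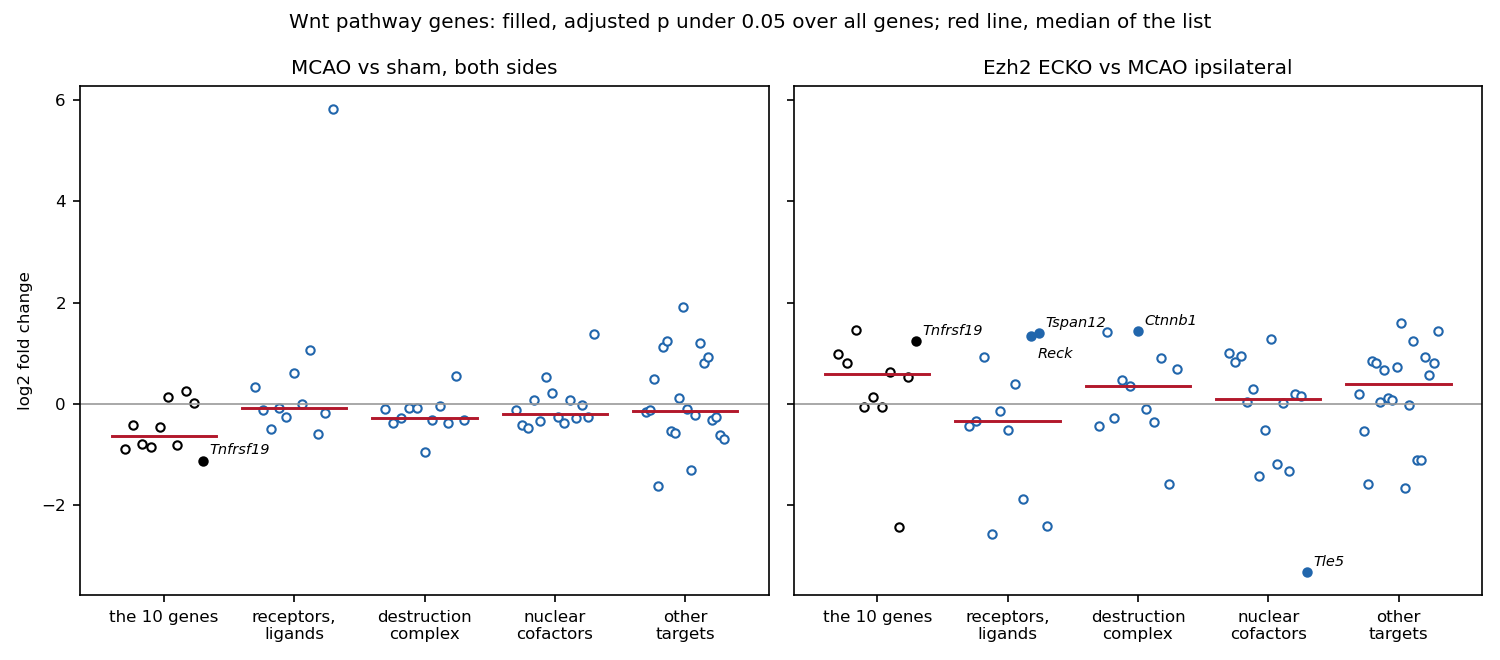
Log2 fold change of the 10 genes and of 56 other Wnt pathway genes in 4 lists, for MCAO against sham over both sides and for the libraries labelled Ezh2 ECKO against MCAO ipsilateral. Filled points passed an edgeR adjusted p of 0.05 over all genes, and the red line is the median of a list, −0.63 for the 10 genes on the left and 0.58 on the right.

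After occlusion the other lists lay closer to 0 than the 10 genes. Over both sides the medians were −0.28 for the destruction complex with beta-catenin, −0.19 for the nuclear cofactors, −0.14 for the other targets and −0.07 for receptors and ligands, beside 0.06 for all genes, and 0 of 56 were called. Ctnnb1 came closest, with 1007, 1357 and 1425 CPM in sham ipsilateral, 1086, 1684 and 1009 CPM in sham contralateral, 612, 464 and 851 CPM in MCAO ipsilateral and 691, 613 and 692 CPM in MCAO contralateral. All 6 MCAO libraries lay below all 6 sham libraries, and the log2 fold change was −0.95, with an edgeR adjusted p of 0.0803. With the background as a covariate the adjusted p was 0.0279. The highest point in the plot of pathway genes is Wnt7b, a ligand named after its value was seen, with means of 0.0515 CPM in sham, below what 3 counts give, and 2.79 CPM in MCAO (edgeR adjusted p 0.109).

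Levels of the 10 genes were also compared with each other over the 18 libraries, as Pearson r and Spearman rho of log2(CPM + 1). Of 45 pairs 6 had an adjusted permutation p of r under 0.05, and these were all the pairs among Lef1, Tcf7, Apcdd1 and Tnfrsf19. The libraries of a group share their condition, so r is given also with group means removed. The permutation mixed all 18 libraries without regard to group, so its p also takes in differences between groups. No p was computed for r with group means removed. No batch is named in the labels.

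Apcdd1 and Tnfrsf19 had the highest r, 0.862, with rho 0.816. The permutation p of r was 1e-05, the smallest that 100000 resamples can give, and 0.000225 after adjustment, and that of rho was 0.00015 and 0.00338. Leaving out 2 libraries, those with the most extreme Apcdd1 levels around its median, gave r 0.823, and with group means removed it was 0.546.

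Lef1 and Apcdd1 had r 0.855 and rho 0.831, with the same p of r before and after adjustment and a p of rho of 4e-05, 0.0018 after adjustment. Without the 2 farthest libraries r was 0.809, and with group means removed it was 0.875. With group means removed, r with the background was −0.506 for Lef1, −0.522 for Apcdd1, −0.613 for Tcf7, −0.214 for Tnfrsf19 and −0.844 for Nkd1, and its part in these relations was not tested. The lowest library for both was MCAO contralateral replicate 1 and the highest Ezh2 ECKO replicate 1.

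**Figure D5:**
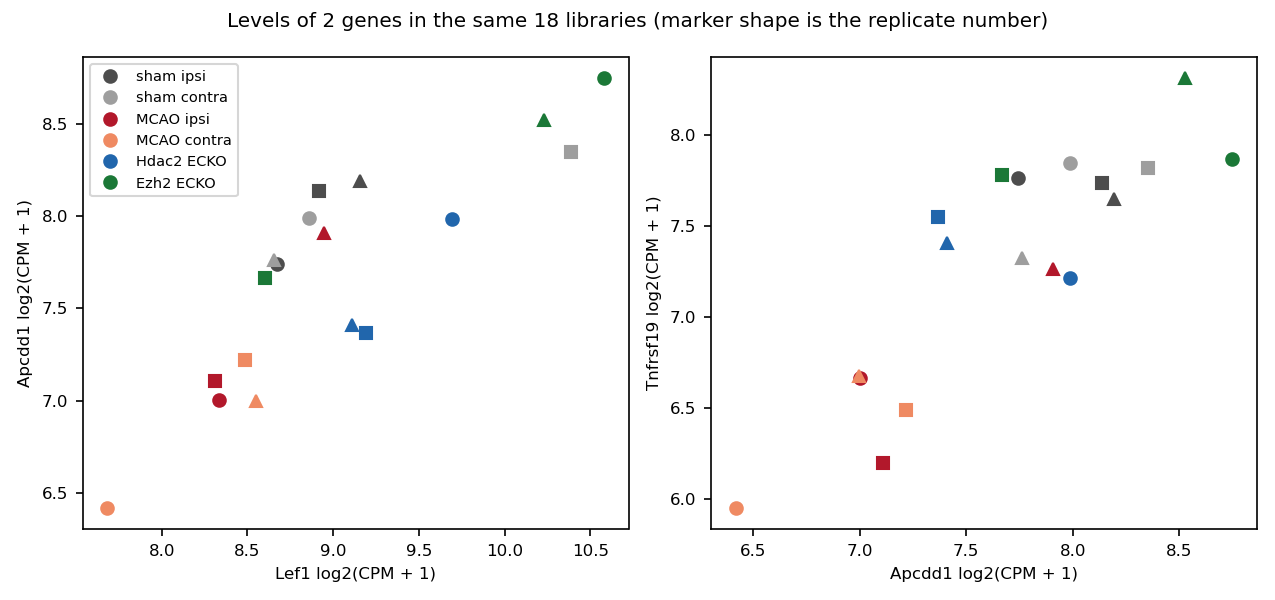
Levels of Lef1 against Apcdd1 (left) and of Apcdd1 against Tnfrsf19 (right) as log2(CPM + 1), 1 point per library, coloured by group, with the marker shape for the replicate number. Pearson r over the 18 libraries is 0.855 on the left and 0.862 on the right.

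The other 4 of these pairs had r between 0.717 (Lef1 and Tnfrsf19) and 0.773 (Tcf7 and Apcdd1), with adjusted permutation p between 0.0029 and 0.0078. With group means removed r was 0.276 for Tcf7 and Tnfrsf19 and 0.472 for Lef1 and Tnfrsf19. In the 16 libraries that did not stand apart, r among these 4 genes ran from 0.651 (Lef1 and Tcf7) to 0.834 (Apcdd1 and Tnfrsf19), and Axin2 and Tnfrsf19 had r 0.848 against 0.534 in all 18. The next pairs, Tcf7 with Notum (r 0.592) and Tcf7l2 with Nkd1 (r −0.595), both had an adjusted p of 0.0546.

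Among the 7813 other genes that reached a mean level of 10 CPM, the 5 genes most like Lef1 by Pearson r over the 18 libraries were Polr2k (0.904), Mrpl33 (0.897), Cbx3 (0.897), Hsd17b11 (0.893) and Rtn4 (0.887). Polr2k encodes a subunit of RNA polymerases, Mrpl33 a mitochondrial ribosomal protein and Cbx3 a heterochromatin protein. Apcdd1 stood at rank 22 of the genes compared with Lef1, Tcf7 at rank 234 and Tnfrsf19 at rank 258, while Sox17 had r −0.211.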

How the data were processed

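RNA of sorted endothelial cells was sequenced in 18 libraries, 6 groups of 3. The authors deposited 1 table of whole-number counts per gene with the length of each feature. Per the submitters' processing notes FastQC, cutadapt, STAR, featureCounts and DESeq2 were used with build mm10, and versions, annotation and strand setting are not given in the sources used here. The table is named as normalized, but its values are whole numbers with differing totals, so the deposited counts were treated as unscaled. From 77.3% to 89.4% of the low counts of a library were even.

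Genes with at least 10 counts in at least 3 libraries were kept. All 18 libraries entered 1 fit of group means in edgeR 4.0.16 (R 4.3.3, limma 3.58.1), with TMM scaling, quasi-likelihood F-tests and Benjamini-Hochberg adjustment over all genes tested, called at an adjusted p under 0.05. CPM used the TMM-scaled totals. A count of 0 is read as up to 3 counts, which is 0.0619 to 0.101 CPM by library and covers counting error only. Permutation tests used scipy 1.17.1. The common biological coefficient of variation was 0.774, which limits what 3 libraries can show. On simulated data of the Ezh2 ECKO comparison with 17094 genes, 200 changed, 0% were called at a log2 size of 1 and 17% at 2, with 0 false calls. The changed genes were drawn from all genes tested. Among the 10 genes the coefficient ran from 0.273 (Sox17) to 0.425 (Nkd1), except for Tcf7l1 at 0.773. The simulated shares therefore do not give the chance of a call for the 10 genes.

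The 10 genes and all lists were chosen with earlier results of these data known. Besides the 10, up to 3 genes of a pathway list, those with the smallest adjusted p among the called, and the 5 genes most like Lef1 were named, and Ctnnb1 over both sides was named after its values were seen. Alternatives were RLE scaling, no filter, a replicate block, the background as a covariate, only the groups compared, DESeq2 1.42.0, each library left out, and, chosen after seeing the data, both libraries that stood apart left out together. Sequences came from RefSeq tables on GRCm38.p6, and the table's coordinates (1-based) matched GENCODE M21 in both ends for 9 of 10 genes.

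Further marker lists, as summed CPM over all libraries, were oligodendrocyte lineage (10 genes, 6.58 to 197), astrocyte (7 genes, 30.8 to 92.2), fibroblast (5 genes, 0.913 to 12.9) and choroid plexus (4 genes, 40.3 to 553). The T cell and leukocyte list is given without 1 gene, which is not reported here. Aldh1l1 and C1qa were at 0 in all sham contralateral libraries, and Sox10 and Olig2 in all labelled Hdac2 ECKO.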

Additional observations from a re-analysis of the deposited data

How the results depend on the processing

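Of the 10 genes, 1 was called over both sides and 1 in the libraries labelled Ezh2 ECKO, Tnfrsf19 each time, and these counts moved with the processing. Over both sides the count was 0 with a replicate block and with only the groups compared, 3 with the background as a covariate and 3 with DESeq2 (Tcf7, Apcdd1 and Tnfrsf19 in both). For the libraries labelled Ezh2 ECKO it was 0 without a filter, with the block, with the background covariate and with only the groups compared, and 3 with DESeq2 and without both libraries that stood apart (Lef1, Apcdd1 and Tnfrsf19 in both). Leaving out single libraries gave 0 to 1 in either comparison. The cause was not tested. Under the block Tnfrsf19 kept its direction, with −1.15 (edgeR adjusted p 0.0770) and 1.25 (0.0759). Over all groups, deviations of same-numbered libraries had a median correlation of −0.013, from −0.41 to 0.33, and 2 of 18 libraries were highest with their own number. Most of these 45 pairs join different conditions or genotypes, so they cannot show whether both sides came from 1 mouse. The 6 pairs of same-numbered sides of sham or MCAO had a median of 0.17, from −0.07 to 0.30, beside 0.017 for pairs of other numbers. These values do not decide it, and whether those sides came from 1 mouse is not given, so the numbers are not taken as pairs. The block also ended the calls of Ctnnb1, Tspan12, Tle5 and Reck. Lef1 between the sham sides was −0.59 and turned to 0.17 without sham contralateral replicate 2, with a range of −0.92 to 0.17 over the libraries left out.

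Of 47 changes of at least 1 SE among the 10 genes, alternatives other than leaving out single libraries kept direction and call in 303 values, with 8 newly called and 6 no longer called. Leaving out single libraries kept both in 333 values, with 14 no longer called and 1 reversed. The values no longer called were all of Tnfrsf19, the only one of the 10 genes called in the main fit. Most kept values were therefore of genes that stayed uncalled. Over all genes the count over both sides was 26, and 40 with RLE, 29 without a filter, 4 with the block, 99 with the covariate, 23 with only the groups compared, 337 with DESeq2, 476 without both libraries that stood apart, and 0 to 231 with single libraries left out. For the libraries labelled Ezh2 ECKO it was 250, and 368, 232, 12, 13, 422, 1642, 925 and 5 to 280 in that order. For MCAO ipsilateral against sham ipsilateral it was 0, and 2 without a filter, 1 with the covariate, 220 with only the groups compared and 69 with DESeq2. For those labelled Hdac2 ECKO it was 2, and 10 with the covariate, 244 with DESeq2 and 0 to 14 with single libraries left out. RLE scaling moved the share of higher calls in the libraries labelled Ezh2 ECKO from 15.6% to 32.3%.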
